A study of Mus musculus with 5 samples.

Results

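The genes described are the C-type lectin, Siglec, CD300 and TREM receptors of mouse cells, compared between Mll1 knockout and control libraries. They were taken by name: genes whose symbol in the files begins with Clec and a digit, Siglec, Cd300, or Trem or Treml and a digit, with Cd33, Cd22, Cd209a, Mrc1 and Klrb1c added. This gave 53 genes of 31626, of which 33 were C-type lectins, 7 Siglecs, 7 CD300 and 6 TREM genes. The naming rule takes no measured value, although the set was proposed with earlier results of these data known.

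The cells were common myeloid progenitors of C57Bl/6 mice, transformed with the retroviral vector MSCV-MN1-IRES-GFP and grown with IL3, IL6 and SCF. Both groups carried floxed Mll1 alleles and the MN1 vector. The 3 control libraries came from cells transduced with a control, and the 2 knockout libraries from cells transduced with Cre, labelled Mll1 -/-; both were sorted at day 7. As Cre-treated cells with unfloxed Mll1 were not analysed here, effects of Cre itself and of losing Mll1 cannot be told apart. The labels do not tell whether replicates are separate mice or cultures; p-values here reflect the spread among these libraries only, which may be technical.

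These receptors sit on the surface of myeloid and lymphoid cells and bind sugars, lipids, crystals, microbial products or proteins of other cells. Most activating members carry no signal motif of their own. They pass their signal through the adaptor proteins DAP12 (gene Tyrobp) or the Fc receptor gamma chain (gene Fcer1g) to the kinase SYK. A few, such as Clec7a, carry a short activating motif themselves. Inhibitory members carry tyrosine motifs called ITIMs, which recruit the phosphatases SHP-1 (gene Ptpn6), SHP-2 and SHIP-1 (gene Inpp5d). Most of the genes stand in clusters of paralogs, and many are switched on as granulocytes, monocytes and dendritic cells mature.

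Values are FPKM, which scale the fragments of a gene by its length and by library size, so levels can be set side by side between genes. Absolute depth is unknown, as the files hold no counts. The worth of 1 read, read from genes under 2 FPKM, was 0.979 to 1.017 of that in control replicate 1. It was taken as the commonest ratio among ratios near 1 only, so a larger difference in depth would not have shown. The targeted gene Mll1 stood at 9.67, 7.28 and 7.19 FPKM in control libraries, against 6.22 and 5.32 FPKM in knockout libraries. A two-sided exact permutation test over 10 splits gave p = 0.1, the smallest it allows. In limma the log2 change of Mll1 was -0.41 and was not called (adjusted p = 0.158). Without control replicate 1 it was -0.29, also not called (limma adjusted p = 0.0887). The progenitor markers Kit and Cd34 were abundant in every library. Kit stood at 57.1 to 112 FPKM over all libraries, with no overlap between control and knockout libraries. Cd34 fell from 685, 600.3 and 587 FPKM in control libraries to 216 and 212 FPKM in knockout libraries (log2 change -1.54, limma adjusted p = 0.00657). The B and T cell markers Pax5 and Cd3g were listed at 0 throughout. Control replicate 1 stood apart from the other controls: its summed level over 13 neutrophil marker genes was 6434 FPKM, against 822 and 1081 FPKM. Values or counts without that library are given beside those that changed call when it was left out.

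Of the 53 genes, 17 reached 1 FPKM in 2 or more of the 5 libraries and were tested; 36 were not. All but 1 of the 17, Cd300d, passed this filter in the controls alone. Calls are adjusted p-values under 0.05 in limma on log2(FPKM + 1), taken over all 11780 genes tested; log2 changes subtract control from knockout on that scale and so understate changes of low genes. Trem3, Clec12a and Clec5a rose and Clec4e fell. The 3 that rose are 17.6% of the 17, against 3.82% of all genes tested, and the 1 that fell is 5.88%, against 5.97%. The median log2 change of the 17 was 0.30, beside -0.028 over all genes tested. Without control replicate 1, 10 of the 17 rose and 2 fell (58.8% and 11.8%), against 11.9% and 18.0% of all genes, with medians of 0.49 and -0.050. Without control replicate 2, 1 rose and 0 fell (5.88% and none), against 0.382% and 0.560% of all genes. Without control replicate 3, 2 rose and 0 fell (11.8% and none), against 0.594% and 1.14% of all genes. In both settings 6 of the 17 had an unadjusted p under 0.05 in limma. The share of all genes at that threshold was not taken in these settings, so this count has no background beside it. Without either knockout library 0 were called, with 5 at an unadjusted p under 0.05 in limma; of all 11780 genes, 7 were called without knockout replicate 1 and 0 without knockout replicate 2, where 1693 and 1669 had an unadjusted p under 0.05.

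Counted without a test, both knockout libraries lay above every control in 6 of the 17 (35.3%) and below every control in 4 (23.5%). Over all genes tested these shares were 22.9% and 29.4%. Whether a change reflects the number of cells of a kind or the RNA per cell cannot be told apart in such bulk libraries.

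**Figure D1:**
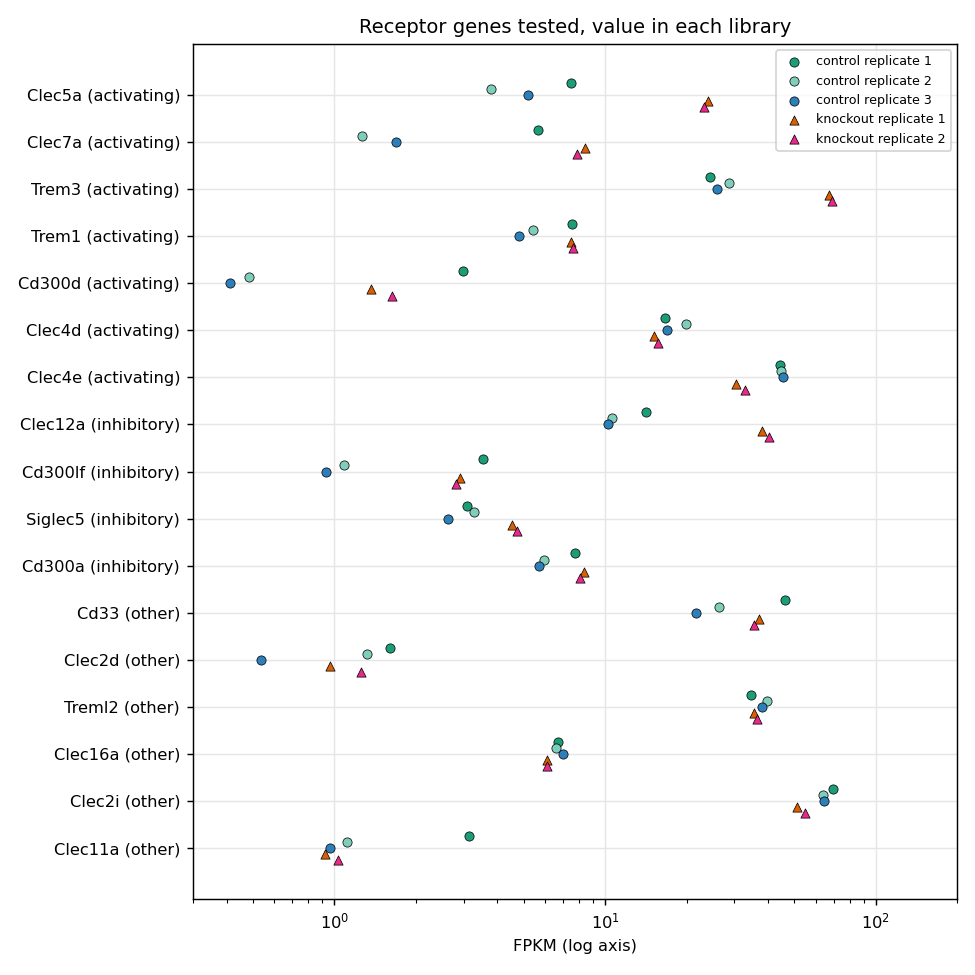
FPKM of the 17 receptor genes tested on a log axis, with 1 point for each of the 3 control (circles) and 2 knockout (triangles) libraries, ordered by role. The knockout points of Clec5a, Trem3 and Clec12a lie far to the right of all controls, while control replicate 1 lies to the right of the other controls for Clec7a, Cd300d, Cd300lf and Clec11a.

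Among activating receptors, the clearest rise was in Trem3, a DAP12-coupled receptor of mouse neutrophils and macrophages. Trem3 stood at 24.4, 28.7 and 25.9 FPKM in control libraries, against 67.1 and 68.7 FPKM in knockout libraries. The groups lay far apart and control replicate 1 was the lowest of all. The mean was 2.58-fold higher in the knockouts (log2 change 1.34, SE 0.091, limma adjusted p = 0.00656). The call was lost without knockout replicate 1 (adjusted p = 0.114) and without knockout replicate 2 (adjusted p = 0.123), where a single knockout library remains.

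Clec5a, also called MDL-1, is another receptor that signals through DAP12 and marks maturing myeloid cells. It stood at 7.51, 3.78 and 5.17 FPKM in control libraries, against 23.9 and 23.2 FPKM in knockout libraries. Both knockout libraries exceeded the highest control, which was control replicate 1. The mean was 4.30-fold higher (log2 change 1.96, SE 0.25, limma adjusted p = 0.0191), and 5.27-fold higher against control replicates 2 and 3. This call was lost without control replicate 2 (adjusted p = 0.0584), control replicate 3 (0.0736), knockout replicate 1 (0.184) or knockout replicate 2 (0.191), and narrowly with no filter on low values (0.0527).

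Trem1, which amplifies inflammatory signals in neutrophils and monocytes and couples to DAP12, moved less. It stood at 7.54, 5.40 and 4.79 FPKM in control libraries, against 7.48 and 7.64 FPKM in knockout libraries. Control replicate 1 lay between the knockout libraries, so the groups overlapped. The log2 change was 0.33 (95% interval -0.14 to 0.80, limma adjusted p = 0.298). Without control replicate 1 it was 0.49 and was called (adjusted p = 0.0238).

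Clec7a (dectin-1) is a receptor for fungal beta-glucans that carries its own short activating motif. It stood at 5.65, 1.26 and 1.69 FPKM in control libraries, against 8.45 and 7.90 FPKM in knockout libraries. The groups did not overlap, but control replicate 1 was 3.83-fold above the mean of the other controls. The log2 change of 1.42 (SE 0.49) was not called in limma (adjusted p = 0.13). Without control replicate 1 the log2 change was 1.89 (adjusted p = 0.0046).

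Cd300d (current symbol Cd300c2) encodes an activating CD300 receptor; its value in control replicate 1 was 6.69-fold above the mean of the other controls, the largest such fold among the tested genes. It stood at 2.999, 0.485 and 0.411 FPKM in control libraries, against 1.36 and 1.64 FPKM in knockout libraries, so the knockouts lay between control replicate 1 and the others. The log2 change was 0.30 (limma adjusted p = 0.732), and 0.79 without control replicate 1 (adjusted p = 0.0212).

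Of the tested receptors that couple to the Fc receptor gamma chain alone, Clec4e fell and Clec4d was not called. Clec4e (Mincle), a receptor for mycobacterial cord factor and for debris of dead cells, was the most abundant activating member in the controls, at 44.4, 44.4 and 45.3 FPKM. It stood at 30.4 and 32.9 FPKM in knockout libraries. The controls lay within 1 FPKM of each other and both knockouts lay below them. The mean fell to 0.709 of the control (log2 change -0.48, SE 0.071, limma adjusted p = 0.0247). Its call was lost without control replicate 2 (adjusted p = 0.0864), control replicate 3 (0.0826), knockout replicate 1 (0.264) or knockout replicate 2 (0.218).

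Clec4d (MCL) is encoded next to Clec4e and forms a receptor complex with it. It stood at 16.7, 19.96 and 16.9 FPKM in control libraries, against 15.1 and 15.7 FPKM in knockout libraries. Both knockouts lay below every control, but the log2 change of -0.20 (95% interval -0.46 to 0.069) was not called in limma (adjusted p = 0.273).

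Of the inhibitory receptors tested, Clec12a changed most. Clec12a (MICL) carries an ITIM, senses uric acid crystals, and is used as a surface marker of myeloid cells and of myeloid leukaemia. It stood at 14.1, 10.6 and 10.3 FPKM in control libraries, against 37.9 and 40.2 FPKM in knockout libraries, with no overlap. The mean was 3.35-fold higher (log2 change 1.67, SE 0.15, limma adjusted p = 0.011). The call was lost without control replicate 2 (adjusted p = 0.0595), knockout replicate 1 (0.128) or knockout replicate 2 (0.146).

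Siglec5 in the files is the mouse gene now named Siglecf, an ITIM-bearing sialic acid receptor best known from eosinophils. It stood at 3.08, 3.29 and 2.62 FPKM in control libraries, against 4.53 and 4.72 FPKM in knockout libraries. The knockouts lay above all controls, with a mean 1.54-fold higher, but the log2 change of 0.50 was not called in limma (adjusted p = 0.0633). It was called without control replicate 1 (adjusted p = 0.0416) and after quantile normalization (adjusted p = 0.034). The eosinophil markers Prg2 and Epx stayed at or below 0.512 FPKM in every library.

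Cd300a, an inhibitory receptor for phospholipids of dying cells, stood at 7.77, 5.95 and 5.70 FPKM in control libraries, against 8.35 and 8.08 FPKM in knockout libraries. The knockouts lay just above control replicate 1. Its log2 change was 0.31 (95% interval -0.056 to 0.68, limma adjusted p = 0.223), and 0.43 without control replicate 1 (adjusted p = 0.02). Cd300lf, an inhibitory receptor of the same cluster, stood at 3.54, 1.09 and 0.929 FPKM in control libraries, against 2.90 and 2.81 FPKM in knockout libraries. Control replicate 1 held its highest value. The log2 change was 0.55 (limma adjusted p = 0.415), and 0.94 without control replicate 1 (adjusted p = 0.0108).

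**Figure D2:**
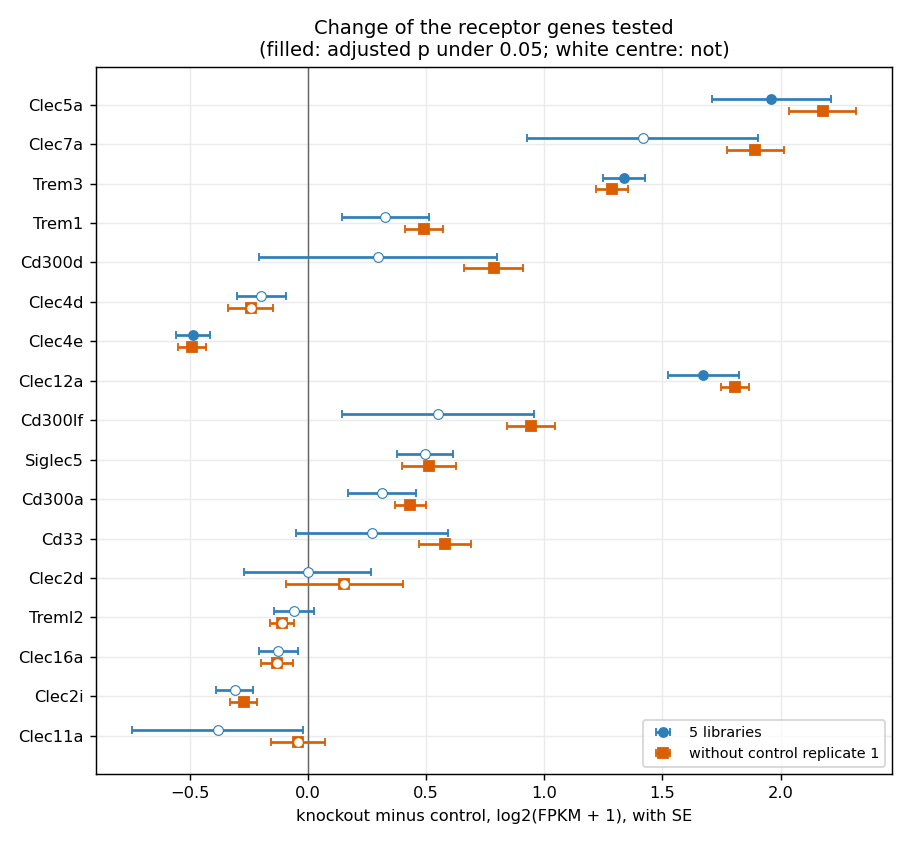
Log2 change of the 17 receptor genes tested, in units of log2(FPKM + 1), knockout minus control, with its SE, over 5 libraries (circles) and without control replicate 1 (squares); white centres mark changes not called. With all libraries 4 genes are called, and without control replicate 1 12 are, among them Clec7a, Cd300lf, Cd300d, Trem1 and Cd33.

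Cd33, a sialic acid receptor of myeloid cells, was the most abundant Siglec. It stood at 46.3, 26.4 and 21.7 FPKM in control libraries, against 36.9 and 35.6 FPKM in knockout libraries, inside the range of the controls. Its log2 change was 0.27 (95% interval -0.55 to 1.096, limma adjusted p = 0.62), and 0.58 without control replicate 1 (adjusted p = 0.0295). The direction of Cd33 was thus the same with and without that library, and its call was not.

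Of the 6 tested members outside the activating and inhibitory groups, Cd33 among them, limma called 0 over the 5 libraries, and 1, Clec2i, had an unadjusted p under 0.05. Clec2i (Clr-g), a ligand of NKR-P1 receptors on natural killer cells, had the highest level of all 53 genes, at 69.3, 63.6 and 64.5 FPKM in the controls. It stood at 51.1 and 54.8 FPKM in knockout libraries, below every control. The log2 change of -0.31 was not called in limma (adjusted p = 0.0722); without control replicate 1 it was -0.27 and was called (adjusted p = 0.0348). Clec2d, a ligand of the same receptor family, stood at 0.537 to 1.61 FPKM in control libraries, against 0.961 and 1.26 FPKM in knockout libraries, inside the range of the controls. Its log2 change was -0.00034, with a 95% interval from -0.68 to 0.68.

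Treml2, a TREM-like receptor of granulocytes, macrophages and B cells, was high in every library. It stood at 34.7, 39.7 and 37.8 FPKM in control libraries, against 35.5 and 36.3 FPKM in knockout libraries. Its log2 change was -0.057 with a 95% interval from -0.27 to 0.16 (limma adjusted p = 0.696), so the interval left out changes as large as that of Trem3. Clec16a, which acts in endosomes and mitophagy, stood at 6.59 to 6.97 FPKM in control libraries, against 6.10 and 6.12 FPKM in knockout libraries (log2 change -0.13, adjusted p = 0.364). Clec11a, a secreted growth factor, stood at 3.14, 1.11 and 0.962 FPKM in control libraries, against 0.926 and 1.03 FPKM in knockout libraries. Its log2 change went from -0.38 to -0.040 without control replicate 1, and was called in neither case (limma adjusted p = 0.526 and 0.816).

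Of the 36 genes below the filter, 11 reached 0.5 FPKM in at least 1 library. Control replicate 1 was at least 2-fold above the mean of the other controls in 8 of these 11. Reaching 0.5 FPKM in 1 library favours genes high in a single library, and no share over low genes chosen this way was computed. The same held for 4 of the 17 tested genes (23.5%), against 3.99% of all genes tested. The 4 were Clec7a, Cd300lf, Cd300d and Clec11a. The dectin-2 gene Clec4n, a receptor for fungal mannans, stood at 5.49, 0.269 and 0.467 FPKM in control libraries, against 0.990 and 0.671 FPKM in knockout libraries. The mannose receptor gene Mrc1 stood at 1.24, 0.0617 and 0.137 FPKM in control libraries, against 0.208 and 0.228 FPKM in knockout libraries. Trem2, a lipid receptor of macrophages and microglia, stood at 1.23, 0.0973 and 0.133 FPKM in control libraries, against 0.436 and 0.224 FPKM in knockout libraries. In these 3 genes control replicate 1 exceeded every other library, the knockouts included.

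Cd300c and Cd300lb, activating CD300 genes, showed the same order. Cd300c stood at 1.03, 0.0513 and 0.105 FPKM in control libraries, against 0.304 and 0.659 FPKM in knockout libraries. Cd300lb stood at 1.26, 0.459 and 0.432 FPKM in control libraries, against 0.702 and 0.518 FPKM in knockout libraries. Control replicate 1 was again highest, and the knockouts lay above the other controls.

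In 3 low genes of inhibitory receptors, the knockouts instead lay near or above control replicate 1. Clec4a2 (DCIR) stood at 0.863, 0.0228 and 0.0117 FPKM in control libraries, against 0.931 and 0.828 FPKM in knockout libraries. Siglece stood at 0.728, 0.200 and 0.189 FPKM in control libraries, against 1.06 and 0.852 FPKM in knockout libraries. Siglecg, known from B cells, stood at 0.214, 0.112 and 0.0384 FPKM in control libraries, against 0.505 and 0.481 FPKM in knockout libraries. Siglece and Siglecg had no overlap between groups, and Clec4a2 overlapped through control replicate 1.

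**Figure D3:**
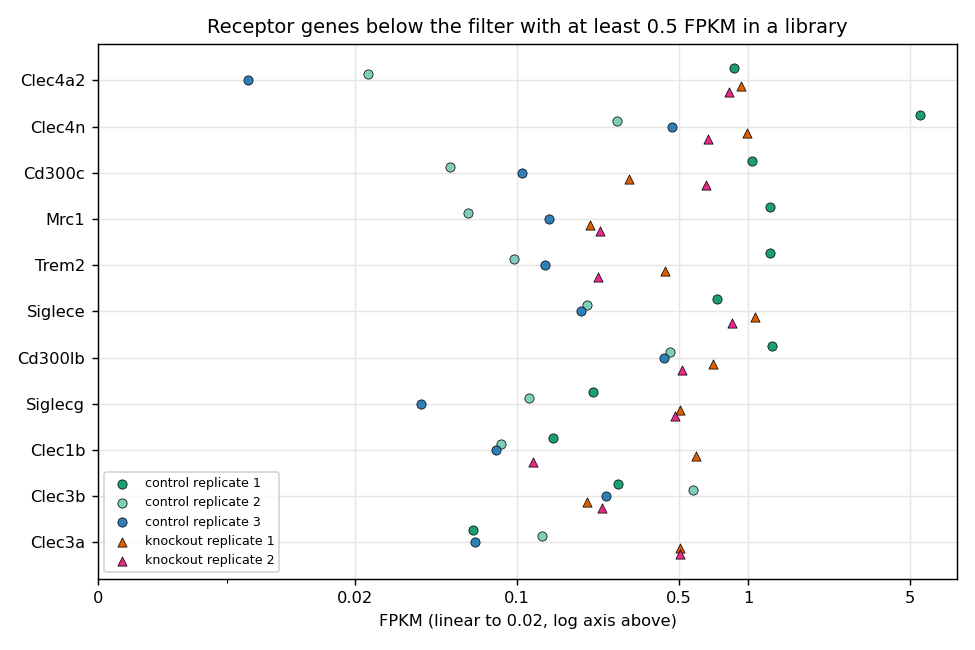
FPKM of the 11 receptor genes below the filter that reached 0.5 FPKM in a library, ordered by how far control replicate 1 exceeds the other controls; the axis is linear to 0.02 and logarithmic above. Control replicate 1 is the rightmost point for Clec4n, Cd300c, Mrc1, Trem2 and Cd300lb, and the knockout points are rightmost for Siglece, Siglecg and Clec3a.

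The remaining 3 of the 11 were Clec1b, Clec3a and Clec3b. Clec1b (CLEC-2), the podoplanin receptor of platelets, stood at 0.0810 to 0.144 FPKM in control libraries, against 0.594 and 0.117 FPKM in knockout libraries, so its high value came from knockout replicate 1 alone. The secreted lectin gene Clec3a stood at 0.0648, 0.129 and 0.0659 FPKM in control libraries, against 0.508 FPKM in both knockout libraries. Clec3b, which encodes the plasma protein tetranectin, stood at 0.243 to 0.576 FPKM in control libraries, against 0.200 and 0.234 FPKM in knockout libraries. With no filter on low values, limma tested 48 of the 53 genes and called 4 higher and 1 lower (8.33% and 2.08%), against 1.05% and 1.15% of all genes then tested. Clec3a (adjusted p = 0.0271) was among them, as were Trem3, Clec12a and Clec4e, and so was Clec4a1 (adjusted p = 0.0468). Unlike the other genes called here, Clec3a and Clec4a1 stayed under 1 FPKM in every library, so their calls may rest on few reads. Clec4a1, singled out after its values were seen, stood at 0.0382 to 0.0933 FPKM in control libraries, against 0.294 and 0.258 FPKM in knockout libraries.

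The other 25 genes stayed below 0.5 FPKM in every library, with a highest value of 0.449 FPKM for Treml4. Among them 5 were listed at 0 in all 5 libraries: Cd209a, Siglech, Clec14a, Clec4a4 and Clec4b1. Cd209a marks monocyte-derived dendritic cells and Siglech plasmacytoid dendritic cells. Cd22, the B cell Siglec, and Klrb1c, the NK1.1 antigen of natural killer cells, had at most 0.0150 and 0.0536 FPKM.

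By GENCODE M21, none of the 17 tested genes shares an exon with another annotated gene on either strand. How the authors counted reads that map to several paralogs is not given in the sources used here, so values of near-identical members of the Clec2, Clec4a and CD300 groups are uncertain. On chromosome 17 the order is Trem1, Trem3, Treml4, Treml2, Trem2 and Treml1; Trem3 rose next to Trem1, which was not called, and Treml4, which stayed under 0.5 FPKM. On chromosome 6, Clec12a lies beside Clec12b, Clec1b, Clec9a and Clec1a, of which Clec1b alone passed 0.1 FPKM, with Clec7a at the far end of the run. In the dectin-2 cluster of the same chromosome, Clec4n, Clec4d and Clec4e are neighbours. Clec4e was called lower and Clec4d was not called, while Clec4n lay below the filter and was not tested. With no filter, Clec4a1 of the same cluster was called higher (limma adjusted p = 0.0468).

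RefSeq sequences upstream of the start site (build GRCm38.p6) were found for 43 of the 53 genes, in 47 entries. They are shown for 4 members of chromosome 6 that moved most among those with an entry, or in opposite directions. Trem3, which also rose, lies on chromosome 17 and had no such entry. Clec12a and Clec5a rose, Clec4e fell, and Clec7a rose without control replicate 1. Each is written 5′ to 3′ on the gene's strand, ending at the base before the start site for Clec5a, Clec7a and Clec4e. For Clec12a 2 windows of 30 bases are given, since an exon of another transcript covers this stretch. Capitals mark matches to GAGGAA, the core of the PU-box bound by the myeloid factor PU.1, or to TTGCNNAA, a C/EBP consensus, both searched on both strands.
Clec5a, chr6:40585806-40585955, minus strand: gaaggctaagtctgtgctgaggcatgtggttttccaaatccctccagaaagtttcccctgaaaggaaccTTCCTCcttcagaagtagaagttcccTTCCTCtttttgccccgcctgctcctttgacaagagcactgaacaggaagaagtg
Clec7a, chr6:129472780-129472929, minus strand: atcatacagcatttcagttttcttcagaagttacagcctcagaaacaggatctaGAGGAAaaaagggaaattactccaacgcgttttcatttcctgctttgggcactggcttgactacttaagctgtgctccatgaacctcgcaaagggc
Clec4e, chr6:123289872-123290021, minus strand: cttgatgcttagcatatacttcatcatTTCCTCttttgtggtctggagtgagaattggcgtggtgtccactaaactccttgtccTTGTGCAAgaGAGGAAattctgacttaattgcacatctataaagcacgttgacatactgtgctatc
Clec12a, chr6:129350094-129350123, plus strand: taggagcaaaTTGCGCAActcgtatgaagc
Clec12a, chr6:129350178-129350207, plus strand: aatatGAGGAAgaaaagtgTTCCTCtttca

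Within 250 bases upstream, GAGGAA or its complement occurred in 26 of the 47 entries of these receptor genes (55.3%), against 23.3% of 32851 RefSeq entries. TTGCNNAA or its complement occurred in 6 of the 47 (12.8%), against 9.56%. The longer GAGGAAGT, which contains GAGGAA, occurred in none of the 47 and in 2.44% of all entries. Clec12a and Clec4e held both kinds of match, although 1 rose and the other fell, and Clec5a and Clec7a held GAGGAA alone. These matches describe letters, not bound sites, and paralogs share ancestry, so entries of 1 cluster are not independent.

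Of 28 adaptor and signalling genes behind the receptors 27 were tested. In limma 4 rose and 2 fell (14.8% and 7.41%), against 3.82% and 5.97% of all genes tested, with a median log2 change of 0.044. Without control replicate 1, 9 rose and 4 fell (33.3% and 14.8%), against 11.9% and 18.0% of all genes. Tyrobp (DAP12) stood at 85.4, 57.0 and 45.9 FPKM in control libraries, against 115 and 123 FPKM in knockout libraries. All its knockout values exceeded all controls, with a log2 change of 0.96 that was not called (adjusted p = 0.0853); without control replicate 1 it was 1.20 (adjusted p = 0.00977). Fcer1g, the gamma chain, stood at 305, 350 and 381 FPKM in control libraries, against 275 FPKM in both knockouts. Both knockouts lay below all controls, with a log2 change of -0.32 that was not called (adjusted p = 0.151); without control replicate 1 it was -0.41 (adjusted p = 0.02), and after quantile normalization -0.37 (adjusted p = 0.0474).

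Downstream, Lcp2 (SLP-76), a scaffold of ITAM signalling, rose from 14.4 ± 2.21 FPKM (SD, n = 3) to 32.6 ± 2.41 FPKM (SD, n = 2; limma adjusted p = 0.0189). Lat2 (NTAL), a membrane scaffold of the same pathway, fell from 112 ± 23.4 to 39.7 ± 3.05 FPKM (adjusted p = 0.0196). The kinase gene Prkcd, which links SYK to CARD9, rose from 41.8 ± 0.686 to 70.7 ± 0.267 FPKM (adjusted p = 0.01). Vav1, an exchange factor, rose from 60.5 ± 1.13 to 85.8 ± 3.98 FPKM (adjusted p = 0.023), and Dok1, an inhibitory adaptor, from 12.4 ± 0.721 to 17.0 ± 0.868 FPKM (adjusted p = 0.0463). The kinase gene Pik3cg fell from 23.8 ± 0.271 to 18.3 ± 0.412 FPKM (adjusted p = 0.0397). None of these 6 was called without control replicate 2 (adjusted p 0.0584 to 0.122), without knockout replicate 1 (0.164 to 0.345) or without knockout replicate 2 (0.17 to 0.338), and Prkcd alone was called without control replicate 3 (0.0474). With no filter Lat2 (adjusted p = 0.0524) and Dok1 (0.0782) were not called, nor was Pik3cg after quantile normalization (0.0503) or without the intensity trend (0.0507), nor Dok1 without that trend (0.0532).

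Syk stood at 24.1 to 25.5 FPKM in control libraries, against 27.3 and 29.0 FPKM in knockout libraries (limma adjusted p = 0.183). The phosphatase genes of the inhibitory receptors were not called either: Ptpn6 stood at 73.2 ± 7.59 (SD, n = 3) and 85.3 ± 2.43 FPKM (SD, n = 2; adjusted p = 0.238) and Inpp5d at 42.1 ± 3.83 and 44.3 ± 0.335 FPKM (adjusted p = 0.647). Hcst, which encodes the adaptor DAP10, stood at 14.4 to 25.3 FPKM in control libraries, against 18.0 and 15.5 FPKM in knockout libraries (adjusted p = 0.819).

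**Figure D4:**
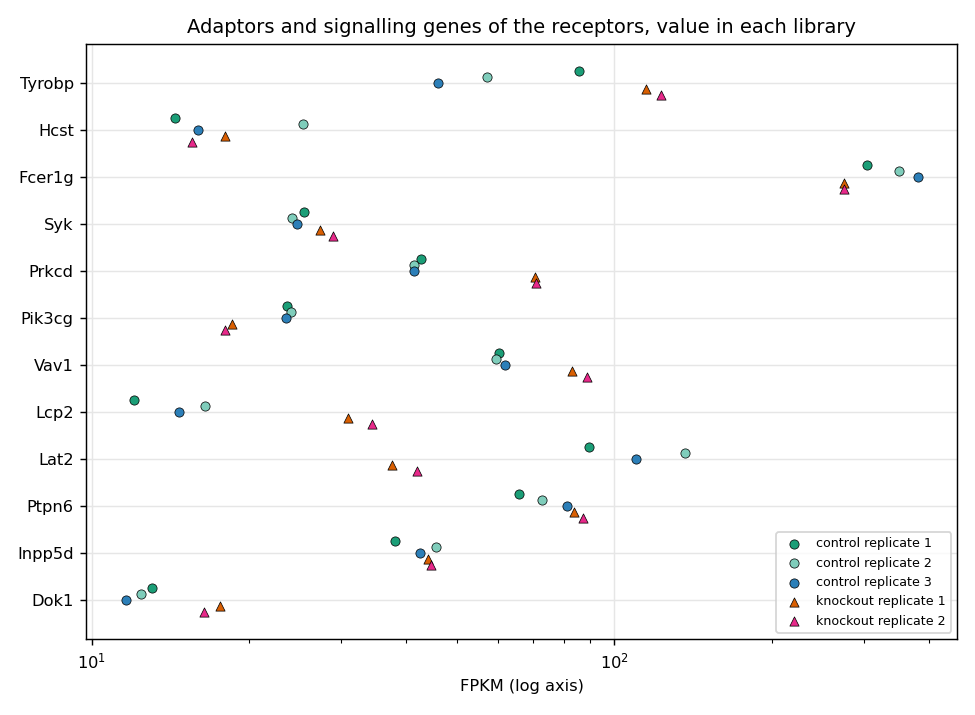
FPKM of 12 adaptor and signalling genes on a log axis, with 1 point per library. Tyrobp and Lcp2 lie to the right in the knockouts (triangles) and Fcer1g and Lat2 to the left; Tyrobp and Fcer1g were not called.

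Of 8 protein ligand genes tested, 1 rose and 0 fell in limma (12.5% and none, against 3.82% and 5.97% of all genes), with 6 at an unadjusted p under 0.05. Counts at an unadjusted p in this paragraph have no share of all genes beside them. Without control replicate 1, 4 rose and 2 fell (50.0% and 25.0%, against 11.9% and 18.0%). Apoe, a lipoprotein gene whose product binds TREM2, rose from 10.7 ± 0.281 (SD, n = 3) to 15.8 ± 1.46 FPKM (SD, n = 2; limma adjusted p = 0.0337). Its call was lost without control replicate 2 (adjusted p = 0.0958), control replicate 3 (0.0973), knockout replicate 1 (0.209) or knockout replicate 2 (0.307), and with no filter (0.0636). Pglyrp1, a granule protein that activates TREM1, stood at 41.7, 16.0 and 12.5 FPKM in control libraries, against 86.5 and 86.3 FPKM in knockout libraries. Its log2 change of 2.03 was not called (adjusted p = 0.0693), and without control replicate 1 it was 2.53 (adjusted p = 0.00364). Sialic acid is the ligand of Siglecs. Of 21 genes that make or attach it, 14 were tested and 0 called in limma, with 4 at an unadjusted p under 0.05; without control replicate 1, 1 rose and 4 fell (7.14% and 28.6%). The sialyltransferase genes St3gal1 and St8sia4 were among those 4, at 18.9 ± 5.67 (SD, n = 3) and 9.91 ± 0.625 FPKM (SD, n = 2) for St3gal1 and at 14.9 ± 3.79 and 7.58 ± 0.499 FPKM for St8sia4.

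Marker lists of mature blood cells were set beside the receptors, with calls again read against 3.82% higher and 5.97% lower over all genes, or 11.9% and 18.0% without control replicate 1. Counts of marker genes at an unadjusted p have no such share beside them. The summed level of 13 neutrophil markers was 822 to 6434 FPKM in control libraries and 20717 and 22450 FPKM with Cre. Of the 10 tested 1 rose and 0 fell, and without control replicate 1 the counts were 8 (80.0%) and 1. S100a8 and S100a9 make up most of that sum. Over 7 monocyte markers the sum was 84.3 to 307 FPKM in control libraries, against 308 and 342 FPKM in knockout libraries, with control replicate 1 again the highest control. Of the 5 tested 0 rose and 2, Irf8 and Ccr2, fell (40.0%). Their median log2 change was -1.35, so the sum does not stand for the listed genes alike. Without control replicate 1, 2 rose and 3 fell (40.0% and 60.0%). In the macrophage list of 9 genes it was 15.3 to 55.3 FPKM in control libraries, against 15.3 and 17.1 FPKM in knockout libraries; limma called 0 of the 2 tested, and 1 had an unadjusted p under 0.05 and fell without control replicate 1. Emr1 (F4/80) held most of it, at 52.6 FPKM in control replicate 1 against 19.3 and 13.4 FPKM. The tissue macrophage markers Marco and Timd4 were listed at 0 in every library and C1qa, C1qb and C1qc were at or below 0.125 FPKM. Clec4n, Mrc1 and Trem2 were highest in the library in which Emr1 was highest; the part of other cells in these values was not tested.

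Basophil and mast cell markers summed to 713 to 957 FPKM in control libraries and to 1393 and 1423 FPKM in knockout libraries, with 2 of 6 tested rising, or 3 without control replicate 1. Megakaryocyte markers summed to 40.3 to 70.3 and to 33.1 and 41.1 FPKM, with 0 of 4 called in limma and 1 at an unadjusted p under 0.05. Erythroid markers summed to 13.1 to 40.4 and to 26.7 and 25.6 FPKM, and 2 of 5 rose, or 4 without control replicate 1. Conventional dendritic cell, B cell and eosinophil markers summed to at most 3.02, 2.14 and 0.580 FPKM in any library. Of promyelocyte markers 2 of 3 rose, and of progenitor markers 4 of 8 rose and 1, Cd34, fell, the same counts as without control replicate 1. In the short lists of plasmacytoid dendritic cells and of T and natural killer cells, the single tested gene of each (Bst2 and Gzmb) was not called over the 5 libraries. Gzmb stood at 2.62, 14.6 and 13.9 FPKM in control libraries, against 19.4 and 20.7 FPKM in knockout libraries, and was called without control replicate 1 (log2 change 0.46, limma adjusted p = 0.0162).

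**Figure D5:**
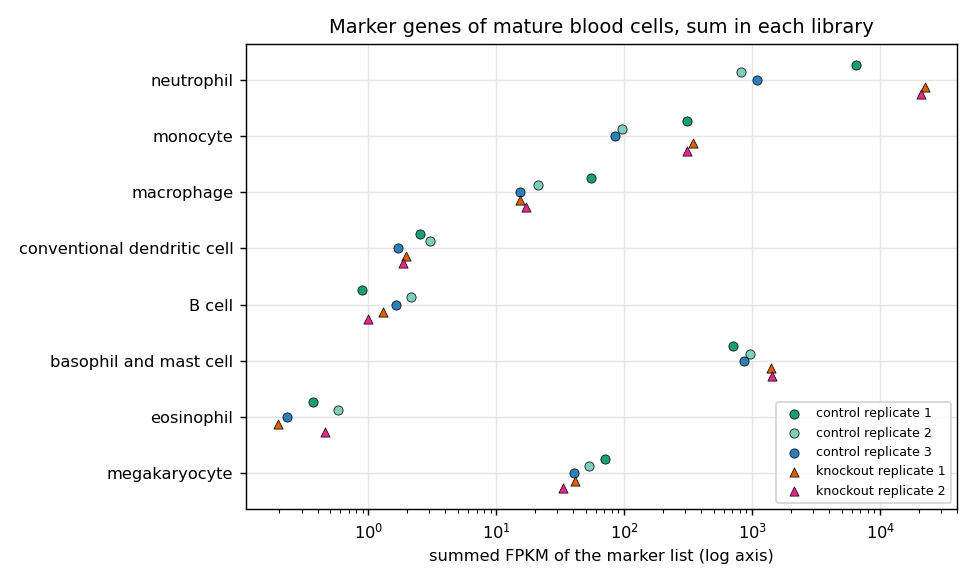
Summed FPKM of marker genes of mature blood cells on a log axis, with 1 point per library (circles control, triangles knockout). Neutrophil and monocyte sums are high in both knockouts and in control replicate 1, and the macrophage sum is high in control replicate 1 alone. The median log2 change of the 5 monocyte markers tested was -1.35, opposite in direction to their sum.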

How the data were processed

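Stranded mRNA libraries were sequenced from 3 control and 2 knockout samples, per the labels' protocols. The deposited values are FPKM as the authors made them; build mm9 and the tools CASAVA 1.8.2, GSNAP, SAMtools and Cuffdiff are named, without settings, per the submitters' processing notes. In 16 genes a library held 999999999, taken as a failed estimate, and these genes were left out; none was a receptor gene described here. Genes that reached 1 FPKM in 2 or more libraries were tested on log2(FPKM + 1) in limma 3.58.1 (R 4.3.3), using an intensity trend and Benjamini-Hochberg adjustment. The procedure was also tested on simulated data. Alternatives covered pseudocount, filter, scaling, the intensity trend, replicate number, threshold, rows sharing a symbol and each library left out, with the filter's gene set kept. The receptor genes and lists were chosen with earlier results of these data known. Named were Mll1, every receptor gene tested, those below the filter that reached 0.5 FPKM, 6 fixed adaptor genes and called genes of the adaptor and ligand lists; Clec4a1, Treml4, St3gal1, St8sia4, Pglyrp1, Cd34, Irf8, Ccr2, Gzmb and others at 0 were named after their values were seen. GENCODE M21 (GRCm38) matched 52 of the 53 genes by ID and was used for names, order and overlaps.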

Additional observations from a re-analysis of the deposited data

How the results depend on the processing

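The number of receptor genes called rested on each library. Leaving out 1 library in turn, genes called higher ranged from 0 to 10 and lower from 0 to 2, and calls over all genes from 0 to 3516. No receptor gene was called with 1 knockout library, where it is assumed to vary like the controls; 5 receptor genes then had an unadjusted p under 0.05 in limma without either knockout replicate, as had 1693 and 1669 of all genes. Without control replicate 2, 1 receptor gene was higher and 0 lower. Deviations from the group means were barely correlated between control and knockout replicates 1 and 2 (largest absolute correlation 0.037). With 2 knockout libraries these deviations mirror each other. The check therefore cannot tell whether libraries of the same number share a mouse or culture. With the replicate number as a block 0 receptor genes were called higher, 0 lower and 54 genes in all. In that setting 5 receptor genes had an unadjusted p under 0.05 in limma, with no share of all genes taken beside it. With no filter 497 genes were called in all, and at an adjusted p under 0.1 2435, with 2 receptor genes lower. Of 30 named genes besides Mll1, 337 of 414 values under alternatives kept direction and call, 58 lost and 12 gained the call, and 7 changed sign. Many of the values that kept their call belong to genes not called over the 5 libraries, so the count does not measure how stable the calls were. Of those of the 30 named genes that were called over the 5 libraries, Trem3 alone stayed called without control replicate 2. Of the same genes, Trem3, Clec12a and Prkcd alone stayed called without control replicate 3. Cd34, Irf8 and Ccr2, which were also called, were not among the 30. Over all genes 111 were called without control replicate 2 and 204 without control replicate 3. Clec2d, near no change, went to 0.052 (pseudocount of 0.1), 0.11 (quantile normalization), 0.017 (median-ratio scaling), and ran from -0.23 to 0.15 over libraries left out; Hcst ran from -0.25 to 0.13. Mll1 was lower and not called under every alternative run. Depth is unknown, so genes under 1 FPKM may rest on few reads.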
